A study of Danio rerio with 18 samples.

Results

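The TRIM and finTRIM genes of zebrafish were followed through RNA-seq libraries of larval liver. Members were the gene IDs whose symbol, in any case, begins with trim or ftr and a digit and which had 10 or more counts over all libraries. Of 32105 gene IDs in the count files, 135 had such a symbol and 112 reached the count minimum. These 112 were 41 TRIM genes outside the trim35 group, 16 trim35-like genes and 55 finTRIM genes. A filter on low counts, applied to all genes alike, left 53 members for testing, of which 35 were other TRIMs, 7 trim35-like and 11 finTRIMs.

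Each library was made from the pooled livers, about 15 to 20, of larvae of strain ABNYU that shared a genotype call. The parents were heterozygous for uhrf1-hi272, an insertion allele of the gene for a protein that maintains DNA methylation, and carried Tg(fabp10a:CAAX-EGFP), which puts a membrane-bound green fluorescent protein in hepatocytes through a hepatocyte promoter. From 48 to 120 h after fertilization, larvae were kept in 0.5% DMSO with 20 µM palbociclib, an inhibitor of the cell cycle kinases CDK4 and CDK6, or in 0.5% DMSO alone. The 4 groups were uhrf1-hi272 mutants in palbociclib (5 libraries), their control siblings in palbociclib (4), mutants in DMSO (5) and control siblings in DMSO (4). The series describes the control livers both as siblings and as wild type, and all 18 libraries share the transgene and the DMSO. Whether the pools came from separate clutches is not in the labels, so a p-value measures the spread between these pools, which may be technical.

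TRIM proteins carry a RING finger, 1 or more B-boxes and a coiled coil, and most act as E3 ubiquitin ligases that attach ubiquitin to chosen targets. The domain at the far end of the protein sets their roles, among them muscle turnover, chromatin regulation, microtubule binding and the control of antiviral signalling. The finTRIMs are a large family found in fish, most with a B30.2 domain, and the first were found as genes induced by virus in trout cells. Many lie in clusters of close copies, so reads from near-identical members may have been divided among them or left out in the counting. Single finTRIM values are less certain for this reason, and so is their sum if such reads were left out.

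Total counts per library ran from 2863560 to 4056715 in mutant palbociclib, from 3400255 to 4764175 in control palbociclib, from 2467926 to 3618445 in mutant DMSO and from 4141600 to 5199301 in control DMSO. Levels below are CPM, counts scaled to the TMM-adjusted library size, and are not corrected for transcript length, so they compare groups and not genes. The targeted gene itself did not pass the test: uhrf1 averaged 41.0 ± 6.82 CPM in mutant palbociclib, 48.3 ± 7.75 in control palbociclib, 46.5 ± 7.55 in mutant DMSO and 37.8 ± 7.50 in control DMSO (SD, n = 5, 4, 5 and 4). A count per gene cannot tell reads before the insertion from reads after it, so these levels do not check the genotype labels. Hepatocyte markers were abundant, and 11 of 15 fell in mutant against control DMSO libraries, where their summed share of counts was 2.45% in mutants and 4.80% in controls. Muscle markers took 4.35%, 3.96%, 4.13% and 2.67% of the counts in the 4 groups, in the order mutant palbociclib, control palbociclib, mutant DMSO and control DMSO. The muscle share was higher in mutant than in control DMSO libraries (exact two-sided permutation p = 0.0317). By the same test p was 0.310 between mutants and controls in palbociclib. Between palbociclib and DMSO it was 0.0571 in controls and 0.484 in mutants. Marker shares are of raw library totals, without TMM. The TMM factors were 0.762 to 0.999 in control DMSO and 1.00 to 1.16 in mutant DMSO. A rise in mutant DMSO is therefore larger as a share than in CPM. In these bulk samples, fewer cells of a type and less RNA per cell cannot be told apart.

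In DMSO, 7 of the 53 tested members passed edgeR's quasi-likelihood test at a Benjamini-Hochberg adjusted p under 0.05 over all genes, 6 of them higher and 1 lower in mutant livers. The 6 that rose were trim35-3, trim25, ftr78, ftr56, ftr38 and a TRIM8 gene, and TRIM32 fell. Among all 17048 tested genes, 17.1% passed, 6.72% higher and 10.4% lower, so the members' 13.2% was no larger a share than that of genes at large. By direction, 11.3% of members passed as higher and 1.89% as lower. The median log2 fold change of the tested members was 0.25, against 0.06 over all tested genes. Of the members 38 were above 0 and 15 below, where 55.1% of all tested genes were above 0. In palbociclib, 1 of 53 passed between mutants and controls, trim35-3, with 1.05% of all genes called, 0.634% higher and 0.416% lower. There the median was 0.17 against 0.03. trim35-3 had reads in mutant libraries alone and passed the filter through them. ftr78 and ftr56 had reads in controls but also passed the filter through mutant libraries.

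**Figure D1:**
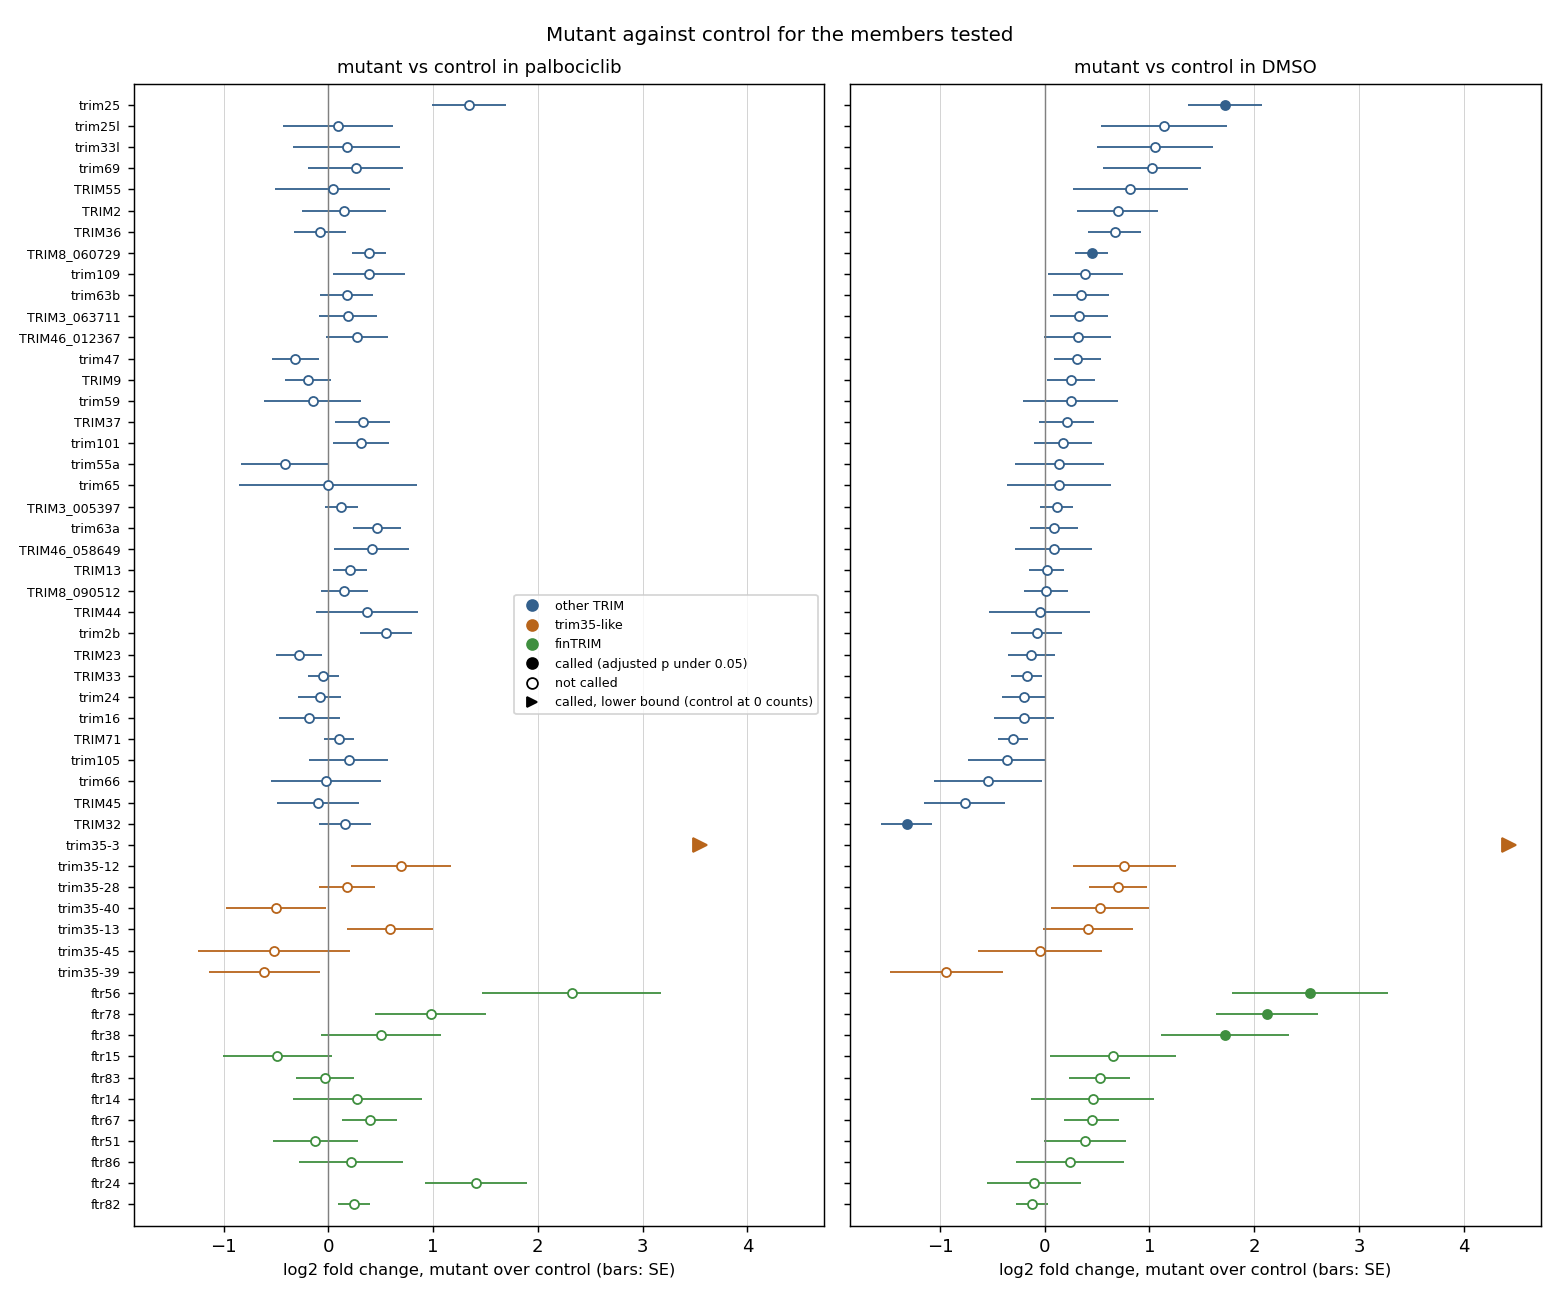
Log2 fold change of mutant over control livers (x axis, bars show the standard error) for the 53 tested members in palbociclib (left) and in DMSO (right), coloured by family, with filled points for adjusted p under 0.05 and an arrow for the lower bound of trim35-3. In DMSO 6 points are called above 0 and TRIM32 is called below it, while in palbociclib trim35-3 alone is called.

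The members known for RNA sensing and interferon signalling were led by trim25, whose mammalian counterpart adds ubiquitin chains that help activate the RNA sensor RIG-I. trim25 (ENSDARG00000104396) had 9.12, 13.4, 11.4, 16.6 and 23.9 CPM in mutant palbociclib libraries, against 6.66, 6.00, 7.25 and 2.97 CPM in control palbociclib libraries. It had 34.4, 23.3, 8.93, 17.6 and 18.1 CPM in mutant DMSO, against 5.62, 5.83, 3.48 and 9.87 CPM in control DMSO. Every mutant library lay above every control library in palbociclib, and in DMSO 1 mutant library, at 8.93 CPM, lay below the highest control. trim25 was 3.30-fold higher in mutants in DMSO (log2 1.72, SE 0.35, adjusted p = 0.000594). In palbociclib its log2 difference was 1.35 (SE 0.36), and the adjusted p of 0.0597 did not pass. The genotype difference was not shown to change with the drug (interaction log2 -0.38, adjusted p = 0.818), and its 95% interval ran from -1.39 to 0.64.

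DESeq2 did call trim25 higher in palbociclib, with an adjusted p of 0.0149, as did 8 of the other alternatives described at the end. Leukocyte markers took 0.0151% of counts in mutant palbociclib, 0.00712% in control palbociclib, 0.0179% in mutant DMSO and 0.00571% in control DMSO. Of 14 tested leukocyte markers, 3 were higher and 1 lower in mutant DMSO, where 6.72% of all tested genes were higher and 10.4% lower. The higher ones were cd74a and cd74b, invariant chain genes of antigen presentation, and ctss2.1, a cathepsin. The lower one was spi1a, a transcription factor of myeloid cells, with 3.30 CPM in mutant DMSO and 8.43 CPM in control DMSO (adjusted p = 0.0174). cd74a had 56.8 CPM in mutant DMSO and 0.0585 CPM in control DMSO, and cd74b 25.6 and 0.251 CPM, so this pair made up much of the rise in the share. Without the pair, a choice made after their values were seen, the share was 0.00879% in mutant palbociclib, 0.00701% in control palbociclib, 0.00918% in mutant DMSO and 0.00569% in control DMSO. Like the other marker shares, it is without TMM, so its rise in mutant DMSO is larger than in CPM. That share still holds ctss2.1, with 8.81 CPM in mutant DMSO and 1.56 CPM in control DMSO. The pan-leukocyte gene ptprc had 3.55 CPM in mutant DMSO and 1.66 CPM in control DMSO (adjusted p = 0.191). LCP1, with more reads, had 11.6 and 9.28 CPM in these groups (adjusted p = 0.419), and CORO1A 10.5 and 8.09 CPM (adjusted p = 0.467). Every leukocyte marker that has a gene ID had counts, and the part of these cells in the TRIM differences was not tested.

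The TRIM8 genes encode ligases linked in mammals to cytokine signalling through SOCS1 and STAT3, and a pair of gene IDs carry the symbol. TRIM8_060729 (ENSDARG00000060729) had 76.9, 55.0, 47.6, 48.1 and 56.2 CPM in mutant DMSO, against 38.9, 32.3, 48.0 and 47.3 CPM in control DMSO. The groups overlapped at 1 mutant library, and the highest mutant library stood well above the others. The log2 fold change was 0.45 (SE 0.16, adjusted p = 0.0434), a call lost in DESeq2 and when any of 6 libraries was left out. In palbociclib TRIM8_060729 averaged 51.5 ± 11.6 CPM in mutants and 39.3 ± 2.41 CPM in controls (SD, n = 5 and 4, adjusted p = 0.357). Its namesake TRIM8_090512 (ENSDARG00000090512) averaged 19.9 ± 5.37 CPM in mutant DMSO and 19.9 ± 4.55 CPM in control DMSO (SD, n = 5 and 4, adjusted p = 0.980). Reads of the pair can have been split between them. TRIM23, trim25l and trim65, the rest of this group, did not pass in any comparison. So 2 of 6 rose in mutant DMSO, where 6.72% of all tested genes rose, and DESeq2 called only 1 of them. In mutant palbociclib 0 of 6 rose, where 0.634% of all tested genes rose. There 2 of the 6 had an unadjusted edgeR p under 0.05.

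**Figure D2:**
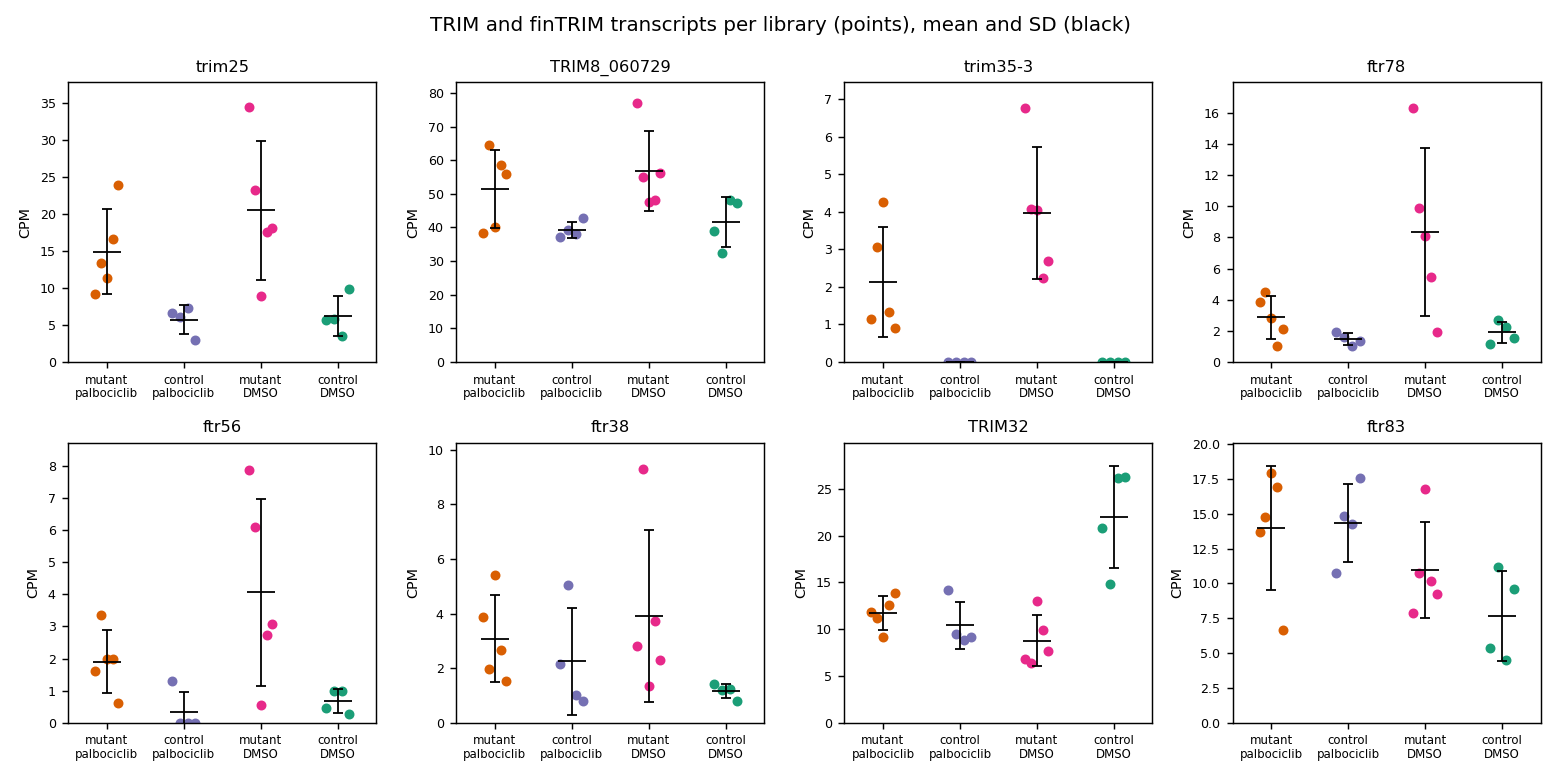
CPM per library (points) with group mean and SD (black) for 8 members, in the order mutant palbociclib, control palbociclib, mutant DMSO and control DMSO. trim35-3 is at 0 in all 8 control libraries, and TRIM32 is highest in control DMSO.

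Of the trim35-like genes, named after mammalian TRIM35, trim35-3 (ENSDARG00000052255) had no counts in any control library. It had 1.14, 3.07, 4.27, 1.33 and 0.906 CPM in mutant palbociclib libraries, against 0 in each of the 4 control palbociclib libraries. In mutant DMSO it had 6.76, 4.07, 4.06, 2.23 and 2.69 CPM, against 0 in each of the 4 control DMSO libraries. Every one of the 10 mutant libraries had reads and none of the 8 control libraries did. In summed counts this was 38 against 0 in palbociclib, at least 11.7-fold higher, and 69 against 0 in DMSO, at least 21.6-fold higher, taking a floor of 3 counts over the control group. Both differences passed (adjusted p = 0.00350 in palbociclib and 1.92e-05 in DMSO), and both calls held in every alternative tried. With 0 counts in controls, trim35-3 passed the filter on low counts through mutant libraries alone. These p-values are therefore not independent of how the gene was kept for testing.

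The other 6 tested trim35-like genes did not pass in any comparison. trim35-28, the one nearest the threshold, averaged 17.8 ± 5.89 CPM in mutant DMSO and 10.9 ± 4.92 CPM in control DMSO (SD, n = 5 and 4, log2 0.70, adjusted p = 0.0761). It passed with library size in place of TMM (adjusted p = 0.00233), with a covariate for the muscle share (0.0170), and without control DMSO replicate 3 (0.0261) or mutant DMSO replicate 3 (0.0193). trim35-39 went the other way, with 1.66 ± 1.103 CPM in mutant DMSO and 3.23 ± 1.32 CPM in control DMSO (SD, n = 5 and 4, adjusted p = 0.267). Both were picked out after their values were seen. Summed over all 16, the trim35-like genes reached 40.2 ± 4.88 CPM in mutant palbociclib, 32.3 ± 6.75 in control palbociclib, 43.3 ± 5.54 in mutant DMSO and 28.4 ± 4.54 in control DMSO (SD, n = 5, 4, 5 and 4). The sums did not overlap in DMSO, where mutants ran from 37.2 to 49.9 CPM and controls from 23.9 to 33.7 CPM. Much of this difference lay in trim35-28, which was not called, and in trim35-3, which had reads in mutants alone. In palbociclib they overlapped, with 35.5 to 46.8 CPM in mutants and 22.8 to 37.7 CPM in controls.

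Among the finTRIMs, 3 of the 11 tested rose in mutant DMSO and 0 fell, where 6.72% of all tested genes rose and 10.4% fell. The highest control library had 2.67 CPM for ftr78 and 1.29 CPM for ftr56. Both therefore passed the filter on low counts through mutant libraries, and ftr38 did so mainly. As for trim35-3, their p-values are not independent of how the genes were kept for testing. ftr78 (ENSDARG00000055436) had 16.3, 9.89, 8.12, 5.46 and 1.92 CPM in mutant DMSO, against 1.17, 2.67, 2.24 and 1.56 CPM in control DMSO. Of the mutant libraries, 4 were above every control and the fifth lay within their range. The log2 fold change was 2.12 (SE 0.49, adjusted p = 0.00130). In palbociclib ftr78 averaged 2.86 ± 1.38 CPM in mutants and 1.47 ± 0.39 CPM in controls (SD, n = 5 and 4, adjusted p = 0.595). Between mutant palbociclib and mutant DMSO the log2 difference was -1.52 (SE 0.44, adjusted p = 0.1096), which passed only when mutant DMSO replicate 5 was left out (log2 -1.76, adjusted p = 0.0409).

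ftr56 (ENSDARG00000030954) had 7.89, 6.11, 0.541, 2.73 and 3.08 CPM in mutant DMSO, against 0.468, 0.971, 0.995 and 0.260 CPM in control DMSO. Again 1 mutant library lay within the control range. The log2 fold change was 2.53 (SE 0.74, adjusted p = 0.0129), and the call was lost without control DMSO replicate 4 (adjusted p = 0.0585) or mutant DMSO replicate 1 (0.0571). In palbociclib ftr56 had 1.60, 3.35, 1.99, 1.99 and 0.604 CPM in mutants, against 1.29, 0, 0 and 0 CPM in controls, a log2 difference of 2.32 (adjusted p = 0.258). Without that single control library with reads, replicate 1, the palbociclib difference passed (adjusted p = 0.0346).

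ftr38 (ENSDARG00000095678) had 2.82, 9.31, 1.35, 3.72 and 2.31 CPM in mutant DMSO, against 1.40, 1.21, 1.24 and 0.779 CPM in control DMSO. The mutant library at 9.31 CPM carried much of the difference of log2 1.72 (SE 0.61, adjusted p = 0.0434). Without it, mutant DMSO replicate 2, the log2 value was 1.12 and the adjusted p 0.261. The call was also lost without any of 6 other libraries. In palbociclib ftr38 averaged 3.08 ± 1.58 CPM in mutants and 2.25 ± 1.96 CPM in controls (SD, n = 5 and 4, adjusted p = 0.895).

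The 8 other tested finTRIMs did not pass edgeR's test in any comparison. ftr83 is expressed in the gills of zebrafish, where antiviral activity is known for it, and ftr82 is its neighbour. ftr82 averaged 30.17 ± 3.63 CPM in mutant palbociclib, 25.5 ± 1.88 in control palbociclib, 32.0 ± 1.85 in mutant DMSO and 34.9 ± 4.36 in control DMSO (SD, n = 5, 4, 5 and 4). ftr83 averaged 14.0 ± 4.44 CPM in mutant palbociclib, 14.4 ± 2.80 in control palbociclib, 10.97 ± 3.42 in mutant DMSO and 7.66 ± 3.24 in control DMSO (SD, n = 5, 4, 5 and 4). ftr14 averaged 2.73 ± 1.26 CPM in mutant DMSO and 1.93 ± 1.19 CPM in control DMSO (SD, n = 5 and 4), and the groups overlapped.

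The remaining 44 finTRIMs had too few reads for the filter, with 12 to 120 counts each over all 18 libraries. Of these 44, 35 (79.5%) had the higher group mean in mutants in DMSO and 33 (75%) in palbociclib. Among all 5835 genes below the filter the shares were 56% in DMSO and 53.4% in palbociclib. None of the 44 lacked counts in mutant DMSO and 7 (15.9%) lacked them in control DMSO, where all genes below the filter gave 2.04% and 3.56%. In palbociclib 1 of the 44 (2.27%) lacked counts in mutants and 10 (22.7%) in controls, against 2.45% and 4.25% of all genes below the filter. These are counts over genes that share libraries and, in part, sequence, and no test was made on them.

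**Figure D3:**
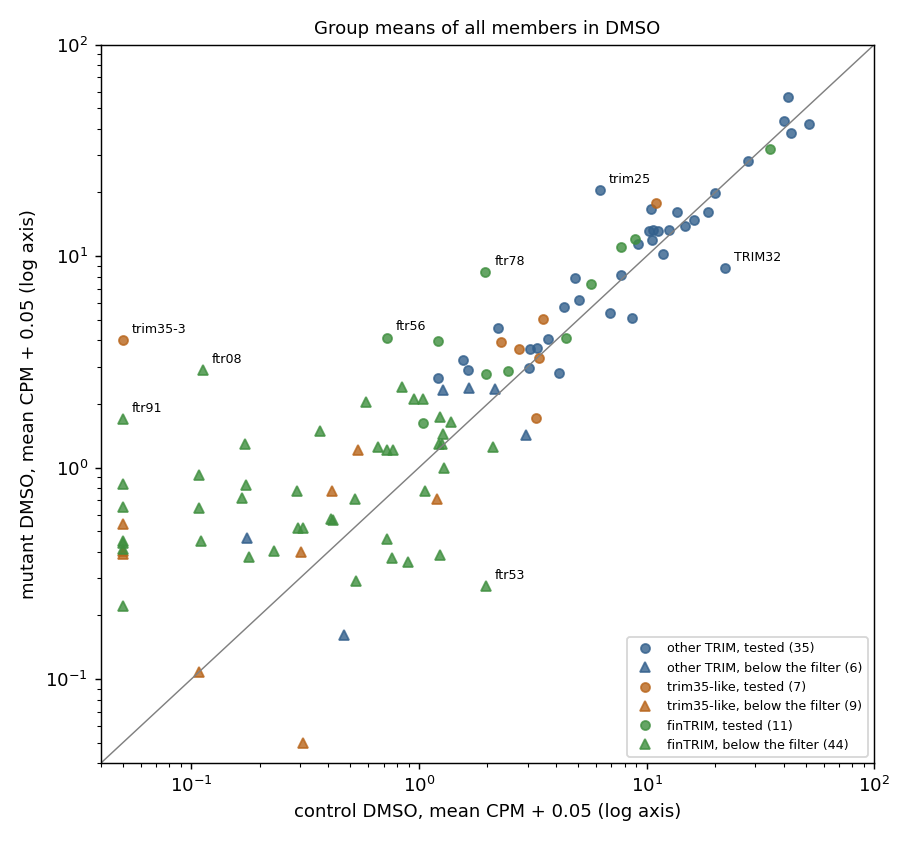
Mean CPM plus 0.05 in mutant DMSO (y axis) against control DMSO (x axis) for all 112 members on log axes, with circles for tested members, triangles for those below the filter and colours for the family. Most triangles of finTRIM genes lie above the line of equal level, and those at the left edge had no counts in control DMSO.

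ftr08 and ftr91, 2 finTRIMs below the filter with many reads in mutant DMSO and 1 or 0 in control DMSO, were picked out after their values were seen. They were not tested in the main fit, and no p-value is given, since they reached the count minimum mainly through mutant libraries. An alternative without the filter did include them, as said at the end. ftr08 (ENSDARG00000077412) had 6.48, 5.53, 0.541, 0.496 and 1.15 CPM in mutant DMSO, against 0, 0, 0.249 and 0 CPM in control DMSO. Every mutant library exceeded every control library, and the summed counts were 49 and 1. The libraries at 6.48 and 5.53 CPM held most of the mutant reads. ftr91 (ENSDARG00000098004) had 4.51, 2.33, 0.271, 0.744 and 0.385 CPM in mutant DMSO, against 0 in each of the 4 control DMSO libraries. This was 29 counts against 0, at least 9.08-fold higher.

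In mutant palbociclib, ftr08 had 13 counts, with 0 in control palbociclib, and ftr91 had 8, with 2 in control palbociclib. Over all 112 members, 6 had every mutant DMSO library above every control DMSO library (ftr08, ftr67, ftr91, ftr93, ftr95 and trim35-3), where 4.98% of 22883 genes did. TRIM32 alone had every mutant DMSO library below, where 6.48% of genes did. In palbociclib the mutant libraries stood above the controls for ftr03, trim25, trim2b and trim35-3 (1.68% of genes) and below them for 0 members (1.32% of genes). For ftr03 this rests on single reads, with 6 counts in mutant palbociclib and 1 in control palbociclib. Its lowest mutant library had 0.228 CPM and its highest control 0.215 CPM. For ftr95 in DMSO, with 12 and 4 counts, these were 0.496 and 0.468 CPM.

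Summed over all 55 genes, finTRIM reads reached 106 ± 10.1 CPM in mutant palbociclib, 84.1 ± 7.75 in control palbociclib, 131 ± 22.7 in mutant DMSO and 95.2 ± 4.51 in control DMSO (SD, n = 5, 4, 5 and 4). Mutant DMSO libraries ran from 110 to 165 CPM and control DMSO libraries from 89.3 to 99.3 CPM, without overlap. In palbociclib mutants ran from 95.2 to 117 CPM and controls from 76.9 to 92.8 CPM, again without overlap. Taken apart, the sums did overlap. In DMSO the 11 finTRIMs that passed the filter ran from 71.6 to 106 CPM in mutants and 65.2 to 75.5 CPM in controls. The 44 below the filter ran from 28.0 to 59.5 CPM in mutant DMSO and 19.0 to 33.0 CPM in control DMSO. Each part overlapped in palbociclib as well. The 41 TRIMs outside the trim35 group, by comparison, summed to 498 ± 32.2 CPM in mutant DMSO and 471 ± 12.0 CPM in control DMSO (SD, n = 5 and 4), and these ranges overlapped. In palbociclib their sums did not overlap either, with 477 to 543 CPM in mutants and 448 to 470.2 CPM in controls, so the separation there was not particular to the finTRIMs.

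**Figure D4:**
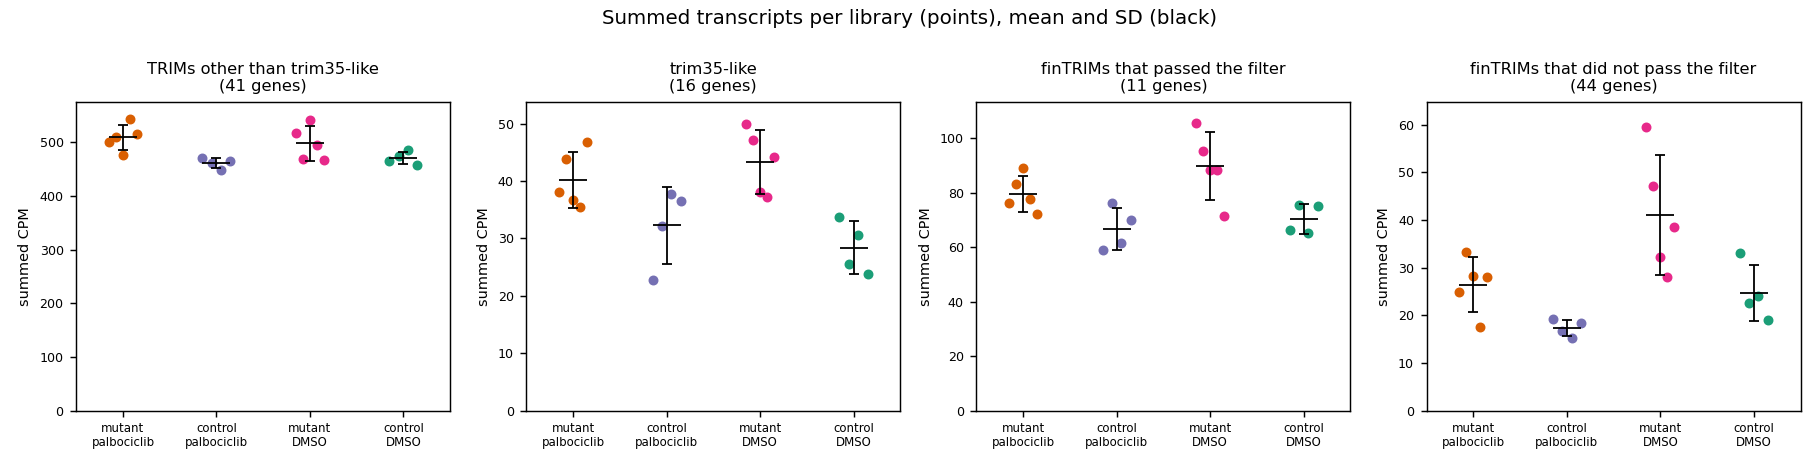
Summed CPM per library (points) with mean and SD (black) for the TRIMs other than trim35-like, the trim35-like genes, and the finTRIMs that did and did not pass the filter on low counts, each axis starting at 0. The trim35-like sums of mutant DMSO, 37.2 to 49.9 CPM, lie above those of control DMSO, 23.9 to 33.7 CPM, while in palbociclib those of mutants, 35.5 to 46.8 CPM, overlap those of controls, 22.8 to 37.7 CPM.

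Neighbouring finTRIMs were read from the order of protein-coding genes in the RefSeq table of assembly GRCz12tu, in which 88 of the 112 members were found by symbol. It holds 10 runs of adjacent members, with 26 members in all and 4 in the longest. In mutant against control DMSO, 21 of these 26 had the higher mean in mutants, and in 6 of the 10 runs every member did. Among all tested genes 55.1% had a log2 value above 0, and of all genes below the filter 56% had the higher mean in mutants. Of all 112 members 82 (73.2%) had the higher mean in mutants, and of the 55 finTRIMs 44 (80%). The share in the runs was thus close to that of the finTRIMs at large. The run of 4, ftr02, ftr03, ftr06 and ftr07, had 49 counts in mutant DMSO and 17 in control DMSO, and each of the 4 had the higher mean in mutants. The run of ftr59, ftr58 and trim35-39 had 49 counts in mutant DMSO and 70 in control DMSO, and 1 of the 3 had the higher mean in mutants. These counts are summed over 5 mutant and 4 control libraries. The adjacent ftr82 and ftr83 differed in sign in mutant against control DMSO (log2 -0.12 and 0.52, neither called).

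TRIM32 was the 1 member that fell. Its protein has NHL repeats and ubiquitinates actin, and mutations of the human gene cause a limb-girdle muscular dystrophy. TRIM32 (ENSDARG00000102505) had 11.9, 11.2, 9.11, 12.6 and 13.9 CPM in mutant palbociclib, against 14.2, 9.47, 8.86 and 9.18 CPM in control palbociclib. It had 6.76, 6.40, 12.99, 9.92 and 7.70 CPM in mutant DMSO, against 20.8, 14.8, 26.1 and 26.2 CPM in control DMSO. The control DMSO libraries were the highest of all 18, and every mutant DMSO library lay below them.

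TRIM32 fell by 1.32 on the log2 scale in mutant against control DMSO (SE 0.24, adjusted p = 7.89e-05). In palbociclib the difference between genotypes was within its error (log2 0.16, SE 0.25, 95% interval -0.35 to 0.67, adjusted p = 0.941). Between control palbociclib and control DMSO, TRIM32 fell by 1.07 (SE 0.25, adjusted p = 0.00923), with every palbociclib library below every DMSO library. This made TRIM32 the 1 member called between the treatments in controls, where 5.71% of all genes were called, 1.38% higher and 4.33% lower. The interaction of genotype and drug was 1.48 (SE 0.35, adjusted p = 0.0151), the 1 member called there, with 1.99% of all genes called, 1.74% above 0 and 0.252% below.

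With the muscle share as a covariate, TRIM32 was called lower in mutant than in control DMSO (log2 -1.14, adjusted p = 0.0418). That fit called 7.43% of all genes there, against 17.1% in the main fit. The muscle share was 4.13% in mutant DMSO and 2.67% in control DMSO, so this covariate cannot be separated from genotype. The fall of TRIM32 with palbociclib in controls did not pass with the muscle share as a covariate (log2 -0.92, adjusted p = 0.418), nor did the interaction (1.35, adjusted p = 0.0824). Both were also lost without control DMSO replicate 3 or 4, and the fall without control palbociclib replicate 4. With the muscle covariate, 0.334% of all genes were called for palbociclib in controls, against 5.71% in the main fit. For the interaction it was 1.43% against 1.99%. The muscle share itself was 2.67% in control DMSO and 3.96% in control palbociclib. The lost call therefore cannot tell a part of muscle from lost power. Of the tested muscle markers, 19 of 25 rose in mutant DMSO and 20 of 25 rose in control palbociclib, each against control DMSO. Of all tested genes, 6.72% rose and 10.4% fell in mutant DMSO, and 1.38% rose and 4.33% fell in control palbociclib. Some skin and nervous system markers moved the same way as muscle, with 3 of 12 and 4 of 11 higher in mutant DMSO, 4 of 12 and 6 of 11 higher in control palbociclib, and 0 lower in either. Of the hepatocyte markers, 11 of 15 were lower in mutant DMSO and 4 of 15 lower in control palbociclib. Of 6 exocrine pancreas markers, 0 were called in either. Beyond the muscle covariate, the part of tissue composition in the TRIM32 difference was not tested.

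Of the other NHL-repeat TRIMs, 0 of 5 passed in mutant against control DMSO by edgeR or DESeq2, and 1 had an unadjusted p under 0.05. TRIM71, the counterpart of the worm timing gene lin-41, averaged 42.1 ± 6.49 CPM in mutant DMSO and 51.9 ± 4.66 CPM in control DMSO (SD, n = 5 and 4, log2 -0.30, adjusted p = 0.154). TRIM2, which in mice targets a neurofilament protein, averaged 7.80 ± 1.36 CPM in mutant DMSO and 4.79 ± 2.67 CPM in control DMSO (SD, n = 5 and 4, log2 0.70, adjusted p = 0.241). trim2b had 13.7, 16.7, 14.8, 14.3 and 14.5 CPM in mutant palbociclib, against 8.60, 7.58, 13.5 and 10.3 CPM in control palbociclib. Its palbociclib groups did not overlap, yet the difference of log2 0.55 did not pass (adjusted p = 0.441). TRIM3_005397 averaged 43.3 ± 6.58 CPM in mutant DMSO and 40.1 ± 4.85 CPM in control DMSO (SD, n = 5 and 4, adjusted p = 0.692).

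The muscle RING finger genes, whose proteins bind the sarcomere and mark its proteins for breakdown, did not pass in any comparison, so TRIM32 was the 1 called gene of the 5 tested in the muscle list. trim63a averaged 17.7 ± 3.17 CPM in mutant palbociclib, 12.8 ± 2.34 in control palbociclib, 13.3 ± 2.82 in mutant DMSO and 12.5 ± 3.18 in control DMSO (SD, n = 5, 4, 5 and 4). trim63b averaged 16.2 ± 3.33 CPM in mutant palbociclib, 14.3 ± 1.79 in control palbociclib, 13.1 ± 5.92 in mutant DMSO and 10.2 ± 2.43 in control DMSO (SD, n = 5, 4, 5 and 4). For mutant against control DMSO the log2 values were 0.09 for trim63a, 0.35 for trim63b, 0.14 for trim55a and 0.82 for TRIM55, with adjusted p from 0.353 to 0.872. DESeq2 called 0 of these 4, and 0 had an unadjusted p under 0.05. TRIM54 had 17 counts in all and was not tested.

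The chromatin cofactors of the TIF1 group gave small negative values. TRIM33, which zebrafish need for blood formation, averaged 38.2 ± 5.55 CPM in mutant DMSO and 42.9 ± 7.32 CPM in control DMSO (SD, n = 5 and 4, log2 -0.17, adjusted p = 0.503). trim24, a coregulator of nuclear receptors, averaged 16.1 ± 5.59 CPM in mutant DMSO and 18.7 ± 3.09 CPM in control DMSO (SD, n = 5 and 4, adjusted p = 0.594). The third member, trim66, had log2 -0.54 (adjusted p = 0.546). Of the 3, 0 had an unadjusted p under 0.05 in mutant against control DMSO, and DESeq2 called 0.

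In no comparison did edgeR call the COS-box TRIMs that bind microtubules (4 tested), the membrane-anchored TRIM13 and trim59, or trim16 and TRIM44, which lack a RING finger. DESeq2 called 0 of them between mutant and control DMSO, and 1, a COS-box gene (TRIM36, picked out after its value was seen), had an unadjusted p under 0.05 there, with log2 0.67 and an adjusted p of 0.0643; the TRIM36 difference passed without control DMSO replicate 1 (adjusted p = 0.0405) or mutant DMSO replicate 2 (0.0190), and with library size in place of TMM (0.00352). TRIM13, an endoplasmic reticulum ligase, averaged 28.2 ± 4.72 CPM in mutant DMSO and 27.9 ± 3.58 CPM in control DMSO (SD, n = 5 and 4, adjusted p = 0.962). The 95% interval of its log2 difference was -0.31 to 0.35. trim59 had log2 0.25 (adjusted p = 0.775) and trim16 -0.20 (adjusted p = 0.7103). Of the 13 members in no role list, 8 were tested and 0 passed in edgeR or DESeq2, with 1 unadjusted p under 0.05 in mutant against control DMSO. Among them trim69 averaged 4.51 ± 0.883 CPM in mutant DMSO and 2.18 ± 1.23 CPM in control DMSO (SD, n = 5 and 4, log2 1.03, adjusted p = 0.134).

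Few members passed between palbociclib and DMSO. In mutants 0 of 53 passed by edgeR and 0 by DESeq2, 4 had an unadjusted p under 0.05, and 0.54% of all genes were called, 0.0411% higher and 0.499% lower. In controls the 1 call was TRIM32, and 11 members had an unadjusted p under 0.05. Nearest to the threshold in controls were ftr83 (log2 0.90, adjusted p = 0.0645) and ftr82 (-0.45, adjusted p = 0.0790), and DESeq2 called both (adjusted p = 0.0434 and 0.0492). In controls, every palbociclib library was above every DMSO library for ftr15, trim25l, trim35-10 and TRIM46_012367, with 3.26% of all genes in that position. Every palbociclib library was below for ftr24, ftr82 and TRIM32, with 4.54% of all genes. In mutants, 0 members stood above (0.625% of genes) and ftr31 and trim47 stood below (1.28% of genes). A few reads set some of these members apart. trim35-10 had 5 counts in control palbociclib and 0 in control DMSO, and ftr31 had 1 in mutant palbociclib and 12 in mutant DMSO. The comparisons share groups, so they are not independent of each other.

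Genes that work beside the TRIMs in antiviral signalling were counted in the same fit. Of 19 tested genes of RNA sensing and interferon signalling, 9 rose and 1 fell in mutant DMSO, where 6.72% of all genes rose and 10.4% fell. In mutant palbociclib 2 of these genes rose and 0 fell, where 0.634% of all genes rose and 0.416% fell. Their median log2 fold change was 0.87 in DMSO and 0.88 in palbociclib, against 0.25 and 0.17 for the tested TRIM and finTRIM members. irf1b, an interferon regulatory factor, averaged 146 ± 46.8 CPM in mutant DMSO and 32.6 ± 9.33 CPM in control DMSO (SD, n = 5 and 4, log2 2.17, adjusted p = 0.000171). traf3, an adaptor of this pathway, rose by 1.80 on the log2 scale in mutant DMSO (adjusted p = 5.03e-05). mavs, the mitochondrial adaptor that acts just after the sensors helped by TRIM25 in mammals, fell by 0.74 on the log2 scale (adjusted p = 0.0216) and was picked out after its value was seen.

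Of 18 tested interferon-stimulated effectors, 13 rose and 0 fell in mutant DMSO, where 6.72% of all genes rose. In mutant palbociclib 5 rose and 0 fell, where 0.634% of all genes rose. The medians over all 18 were log2 3.06 in DMSO and 2.31 in palbociclib. This list was chosen with earlier results of these data known. isg15, a ubiquitin-like modifier, had 83.7, 223, 162, 175 and 164 CPM in mutant palbociclib, against 0.860, 0.316, 0 and 1.62 CPM in control palbociclib. In mutant DMSO isg15 had 578, 444, 163, 187 and 258 CPM, against 0.936, 1.46, 1.99 and 0.260 CPM in control DMSO. The mutant DMSO libraries with the most isg15, replicates 1 and 2, were also the highest for 4 of the 6 members that rose (trim35-3, trim25, ftr78 and ftr56), but not for TRIM8_060729, highest in replicates 1 and 5, or ftr38, highest in replicates 2 and 4. For trim35-3, replicates 2 and 3 were nearly equal. How many of all genes follow isg15 over these libraries was not counted. Replicate 3, with the least isg15, was the lowest for trim25, ftr56, ftr38 and TRIM8_060729, while ftr78 was lowest in replicate 5 and trim35-3 in replicate 4. In mutant palbociclib isg15 was highest in replicates 2 and 4, but trim25 in replicates 4 and 5 and trim35-3 in replicates 2 and 3. ftr56 was highest there in replicate 2, and the other members that rose were not compared there. These orders were looked at after the values were seen. gig2d and parp14rs1, both induced by interferon in fish, rose as well (adjusted p = 1.29e-05 and 8.94e-05 in DMSO). gig2d averaged 0.0622 CPM in control DMSO and 0 in control palbociclib, and isg15 had at most 1.99 CPM in any control library. Both passed the filter on low counts through mutant libraries. Their calls, part of the 13, are therefore not independent of how the genes were kept for testing.

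In mutant DMSO 6.72% of all genes rose and 10.4% fell. Of 26 tested genes for ubiquitin, its relatives and their conjugating enzymes, 3 rose and 0 fell there, with a median of log2 0.10. These are the partners that carry ubiquitin or ISG15 to ligases such as the TRIMs. The 3 were uba7, the activating enzyme of ISG15, the polyubiquitin gene ubc and the conjugating enzyme gene ube2l3b. uba7 averaged 25.6 ± 12.98 CPM in mutant DMSO and 1.24 ± 0.746 CPM in control DMSO (SD, n = 5 and 4, adjusted p = 1.47e-05). Like gig2d, uba7 passed the filter through mutant libraries, so its p-value is not independent of how it was kept for testing. ubc averaged 546 ± 22.6 CPM in mutant DMSO and 416 ± 16.6 CPM in control DMSO (SD, n = 5 and 4, log2 0.39, adjusted p = 0.000159). Of 8 tested genes with a similar RING, B-box or B30.2 makeup but other names, 0 passed in mutant against control in either treatment by edgeR or DESeq2, and 1 had an unadjusted p under 0.05 in each. Nearest to the threshold in DMSO were btr29, btr04 and MID2. btr29 averaged 2.39 ± 0.469 CPM in mutant DMSO and 0.807 ± 0.694 CPM in control DMSO (SD, n = 5 and 4, log2 1.55, adjusted p = 0.153). btr04 averaged 5.73 ± 2.49 CPM in mutant DMSO and 8.77 ± 2.76 CPM in control DMSO (SD, n = 5 and 4, log2 -0.61, adjusted p = 0.222). MID2, a microtubule ligase, averaged 27.4 ± 3.87 CPM in mutant DMSO and 32.8 ± 0.505 CPM in control DMSO (SD, n = 5 and 4).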

How the data were processed

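The authors deposited whole-number counts per gene for each of 18 libraries of rRNA-depleted total RNA. Read checks used FastQC 0.11.5 and trimming used Trimmomatic 0.36, per the submitters' processing notes. Aligner, counter, strand setting, build and annotation were not given in the sources used here. Reads of overlapping or antisense genes therefore cannot be told apart. No pair of libraries was identical (0 pairs), and 0 counted features lacked a gene ID. Symbols came from a reference table that names 26269 of the 32105 gene IDs, some in capitals. Where IDs share a symbol (8 members), the last digits of the ID follow it.

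Genes with few counts were removed with filterByExpr, leaving 17048. TMM factors ran from 0.762 to 1.16. One mean per group was fitted over all 18 libraries with edgeR 4.0.16 (R 4.3.3), robust quasi-likelihood F tests gave 5 contrasts, and Benjamini-Hochberg adjustment ran over all tested genes with a threshold of 0.05. Levels in CPM were computed here from the deposited counts. A gene without counts in a group is given as a bound with a floor of 3 counts over that group. Such bounds cover counting error only, since reads carried no molecular identifiers. Shares of marker counts were taken over library totals without TMM. The muscle share was compared by exact permutation tests, and the other marker shares were not tested. The code was tested on simulated data with known changes.

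Alternatives were DESeq2 1.42.0, scaling by library size, no filter beyond 10 counts, a replicate block, the muscle share as a covariate, members with a shared symbol left out, and each library left out in turn. The replicate numbers of the titles are not said to pair the samples, and 0 of the same-numbered pairs correlated above 0.1. With 3 to 5 pairs per comparison, this check cannot exclude shared clutches or days. Members and gene lists were chosen with earlier results of these data known. Named members were those called in a comparison, the 5 with the most CPM over the groups (TRIM8_060729, TRIM71, TRIM3_005397, TRIM33 and TRIM13), a fixed set, and a few said to be picked after their values were seen. Companion and role lists matched symbols with or without a final a or b. Of each companion list the 3 smallest adjusted p were named, except 1 gene not reported here. No sequences were used here.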

Additional observations from a re-analysis of the deposited data

Results flagged for a closer look

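For 26 named members, each group of 4 or 5 libraries was examined for a library far from the others, 104 groups in all, and 7 had one. Chance gives about 1 in 20 groups. ftr56 had 1.29 CPM in control palbociclib replicate 1 and 0 in the other 3 libraries of that group. TRIM32 had 14.2 CPM in control palbociclib replicate 1, with 8.86 to 9.47 CPM in the others. TRIM54 had 1.33 CPM in mutant palbociclib replicate 4, with 0 to 0.279 CPM in the others. ftr14 had 3.35 CPM in mutant palbociclib replicate 2, with 1.21 to 1.82 CPM in the others.

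In mutant DMSO, ftr82 had 28.9 CPM in replicate 5, below the 32.2 to 33.5 CPM of the others, and trim69 had 2.98 CPM in replicate 3, below 4.62 to 5.21 CPM. TRIM2 had 8.74 CPM in control DMSO replicate 2, with 3.04 to 3.98 CPM in the others. Without that library TRIM2 passed as higher in mutant than in control DMSO (log2 1.16, adjusted p = 0.0465).

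TRIM32 was the member whose genotype difference differed between the treatments by the test of the interaction, which gave 1.48 on the log2 scale (adjusted p = 0.0151).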

How the results depend on the processing

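Scaling by library size alone moved the median log2 fold change of all genes to 0.42 in mutant against control DMSO, 0.23 for palbociclib in controls and -0.27 for the interaction, and called 16 members (15 higher) in DMSO in place of 7, with 33.5% of all genes called and 27.5% higher under that scaling. The other alternatives gave 6 to 10 there, with 7.43% to 17.7% of all genes called. The 10 came with no filter beyond 10 counts and included ftr08, ftr10 and ftr91, which the main filter had removed. They reached the count minimum mainly through mutant libraries, so these calls are not support for a rise. Between mutants and controls in palbociclib, where 1 was called, library size, the replicate block and DESeq2 each called 2 and the muscle covariate 3. Of all genes, these 4 called 1.76%, 0.651%, 1.97% and 2.65% in that order, against 1.05% in the main fit. For palbociclib in controls, where 1 was called, library size and DESeq2 each called 3, and the replicate block and the muscle covariate 0. In the same order they called 8.63%, 7.61%, 1.55% and 0.334% of all genes, against 5.71% in the main fit. The interaction call was lost with library size and with the muscle covariate (0 each), where 2.29% and 1.43% of all genes were called. Leaving out each library in turn called 5 to 8 members in DMSO, 1 to 2 in palbociclib, 0 to 2 for the drug in controls, 0 to 1 for the drug in mutants and 0 to 1 for the interaction. The cause was not tested.

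Over the named members' alternatives, 204 values of called differences stayed called and 26 did not, 24 uncalled ones passed, and 0 called values changed sign. Whether the replicate numbers pair samples is not in the labels. Same-numbered libraries correlated from -0.194 to 0.0566, and at most 1 sample in a comparison correlated best with its own number. Under the replicate block, TRIM8_060729 in DMSO (adjusted p = 0.113) and TRIM32 for the drug in controls (0.0509) lost their calls, and trim25 in palbociclib gained one (0.0173). Depth limits members with few reads: a floor of 3 counts is 0.604 to 1.15 CPM per library.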
